A study of Mus musculus with 23 samples.

Results

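Stretches of chromatin that carried H3K27ac in all 4 cortical subregions, and that were left out of the enhancer list in each of them, are described here. H3K27ac is acetylation of lysine 27 on histone H3. A region counted as excluded when it stood in the full H3K27ac list of a subregion without the same start and end in its enhancer list. The excluded regions of the 4 subregions were merged wherever they overlapped by at least 1 bp, and an element was kept when all 4 contributed. This gave 7095 common elements out of 24783 merged excluded elements, or 28.6% (28.1 to 29.2, Wilson 95% interval). They were chosen by the H3K27ac lists, so their number and their H3K27ac widths are a description and were not tested.

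The tissue was medial entorhinal cortex (MEC), lateral entorhinal cortex (LEC), retrosplenial cortex (RSC) and anterior cingulate cortex (ACC) of C57BL6J mice at postnatal day 56, with no treatment named in the labels. The subregions were dissected from both hemispheres by architecture, so each sample holds all cell types of the tissue block. The labels describe 2 libraries for each subregion and mark, except 1 for H3K4me2 in MEC. Each list is a single set of regions with no values per library, so no spread between animals could be computed and the depth is unknown. Intervals cover counting error only, elements on a chromosome are not independent, and no comparison below was tested.

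Acetylation of this lysine marks active promoters as well as active enhancers, the stretches of DNA that raise transcription of a gene from a distance. H3K4me2, dimethylation of lysine 4 on the same histone, flanks promoters and is also found at enhancers, active or not. Promoters of genes that most cells use tend to carry both marks in many tissues, whereas enhancers vary more between tissues. Studies of enhancers therefore commonly set aside regions near gene starts. The labels do not state the criterion used for these lists. The elements are therefore not called promoters, and no gene or sequence is given because the annotation at hand is of another genome build.

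The common class was close in size to the elements of 3 subregions, which numbered 7332. A further 5323 elements came from 2 subregions and 5033 from 1. Among the elements of 3 subregions, MEC was the one missing in 4164 cases, ACC in 1271, RSC in 1022 and LEC in 875. MEC had the shortest excluded list and gave the largest share of it to the common elements: 7680 of 11897 regions, or 64.6% (63.7 to 65.4). LEC gave 7678 of 19163 regions, or 40.1% (39.4 to 40.8). RSC gave 7641 of 17312, or 44.1% (43.4 to 44.9), and ACC gave 7376 of 20357, or 36.2% (35.6 to 36.9). Common elements held 69.95% of all excluded bases in MEC, 52.6% in LEC, 57.7% in RSC and 49.6% in ACC. The shares of regions ran opposite to the lengths of the excluded lists, from MEC through RSC and LEC to ACC. Each element takes at least 1 region from every subregion, and the numbers given were close, at 7376 to 7680. The order of the shares thus follows from the list lengths by arithmetic and is not read as a trait of MEC. Any further part of list length was not tested.

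No subregion entered a common element through an overlap of a few bp alone. In the thinnest contribution to any common element, the regions of 1 subregion overlapped those of the other 3 by 425 bp, and the median of this thinnest overlap was 2350 bp. This overlap is summed over an element, so it cannot show how thin a single join within it was. In 75 common elements no base lay in a region of every subregion. Just outside, 1 of the 7332 elements of 3 subregions had an excluded region of the fourth within 500 bp, at a gap of 100 bp. In 599 of them, or 8.17%, the fourth subregion had an enhancer region at the place instead. Among the common elements, the merged span overlapped an H3K27ac enhancer region of at least 1 subregion in 1164, or 16.4% (15.6 to 17.3), where 16.6% of all merged excluded elements did. A MEC enhancer region was overlapped in 626 cases, one of LEC in 458, of RSC in 463 and of ACC in 293, some elements counting more than once. The members' share was thus near the background. That background mixes unlike classes: the share was 13.7% at elements of 3 subregions, 16.2% at those of 2 and 21.7% at those of 1. These classes were also narrower than the common elements, and the part of width was not tested. Some elements of 3 subregions were wide in the other 3 subregions. Among those without a full-list region in ACC, chr7:71031651-71075950 (mm9, 1-based, as all coordinates here) had the largest minimum width over the other 3. It measured 33225 bp in MEC, 43900 bp in LEC and 41575 bp in RSC. The full H3K27ac list of ACC had no region there, while ACC H3K4me2 regions covered 37825 bp of it. Elements of 3 without a full-list region in the fourth subregion numbered 3706 for MEC, 816 for LEC, 972 for RSC and 1239 for ACC. Of these, 341, 49, 55 and 62 in the same order were at least 5000 bp wide in each of the others.

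Within the common elements, MEC regions were the narrowest and ACC regions the widest. The width of an element in a subregion is the summed length of its excluded regions there. Its median was 2425 bp in MEC (2400 to 2475, binomial 95% interval of the median), 3950 bp in LEC (3825 to 4025), 3775 bp in RSC (3675 to 3850) and 4250 bp in ACC (4150 to 4375). The 10th and 90th percentiles were 1250 and 6325 bp in MEC, 2075 and 12300 bp in LEC, 2000 and 12465 bp in RSC, and 2050 and 14715 bp in ACC. The upper ends thus lay farther apart than the lower ends. Widths of at least 10000 bp were reached by 4.26% of the elements in MEC, 13.6% in LEC, 13.9% in RSC and 18.03% in ACC. MEC alone was the narrowest in 5786 elements, or 81.6%, and alone the widest in 258. ACC alone was the widest in 2901, LEC in 2133 and RSC in 1576.

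Regions in common elements were wider than the other excluded regions of the same list. Their medians were 2400 against 2050 bp in MEC, 3825 against 2500 bp in LEC, 3700 against 2375 bp in RSC and 4200 against 2600 bp in ACC. The rule works through overlap, which depends on width, so this is a description. The difference was smallest in MEC, where the common elements held most of the list.

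**Figure D1:**
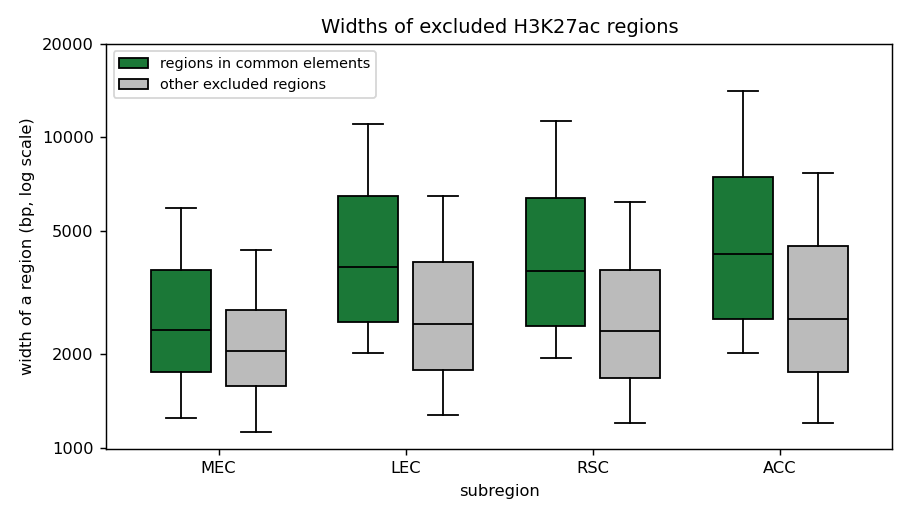
Widths of excluded H3K27ac regions in bp on a log scale, for regions in common elements (green) and other excluded regions (grey) of each subregion. Boxes show the median and quartiles over regions and whiskers the 10th and 90th percentiles; the medians of the green boxes are 2400 bp in MEC, 3825 bp in LEC, 3700 bp in RSC and 4200 bp in ACC.

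LEC, RSC and ACC had closely matching widths element by element, and MEC stood apart from each of them. The median LEC over ACC width ratio was 0.977 (log2 -0.03, -0.04 to -0.03), RSC over ACC 0.962 (log2 -0.06, -0.06 to -0.05) and LEC over RSC 1.03 (log2 0.04, 0.03 to 0.04). For MEC the median ratio was 0.633 over ACC (log2 -0.66, -0.68 to -0.63), 0.677 over LEC (log2 -0.56, -0.58 to -0.54) and 0.697 over RSC (log2 -0.52, -0.54 to -0.50). MEC was narrower than ACC in 6302 elements, wider in 744 and equal in 49. Against LEC it was narrower in 6372, and against RSC in 6394. The narrower MEC widths were not particular to these elements. At the H3K27ac enhancer elements of all 4 subregions, merged in the same way, the median MEC ratio was 0.617 over ACC, 0.679 over LEC and 0.661 over RSC.

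The widths of a pair were within 2-fold of each other in 92.1% of the elements for LEC and ACC, 92.4% for RSC and ACC, and 91.4% for LEC and RSC. For MEC this share was 63.8% with ACC, 70.5% with LEC and 73.2% with RSC. All 4 widths lay within 2-fold in 4001 elements, or 56.4% (55.2 to 57.5), and those of LEC, RSC and ACC in 85.7% (84.9 to 86.5). No element had the same width in all 4, and 617 differed more than 5-fold between the widest and the narrowest subregion.

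Across the 7095 elements, Spearman's rho between widths was 0.868 for LEC and ACC, 0.870 for RSC and ACC, and 0.835 for LEC and RSC. With MEC it was 0.715 for RSC, 0.659 for LEC and 0.622 for ACC. Pearson's r on log2 widths gave the same order, with 0.883 at most (LEC with ACC and RSC with ACC, equal to 3 decimals) and 0.647 at least (MEC and ACC). The points share the merged element that defines them and the 25-bp grid of the lists, and the correlations are given as a description.

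**Figure D2:**
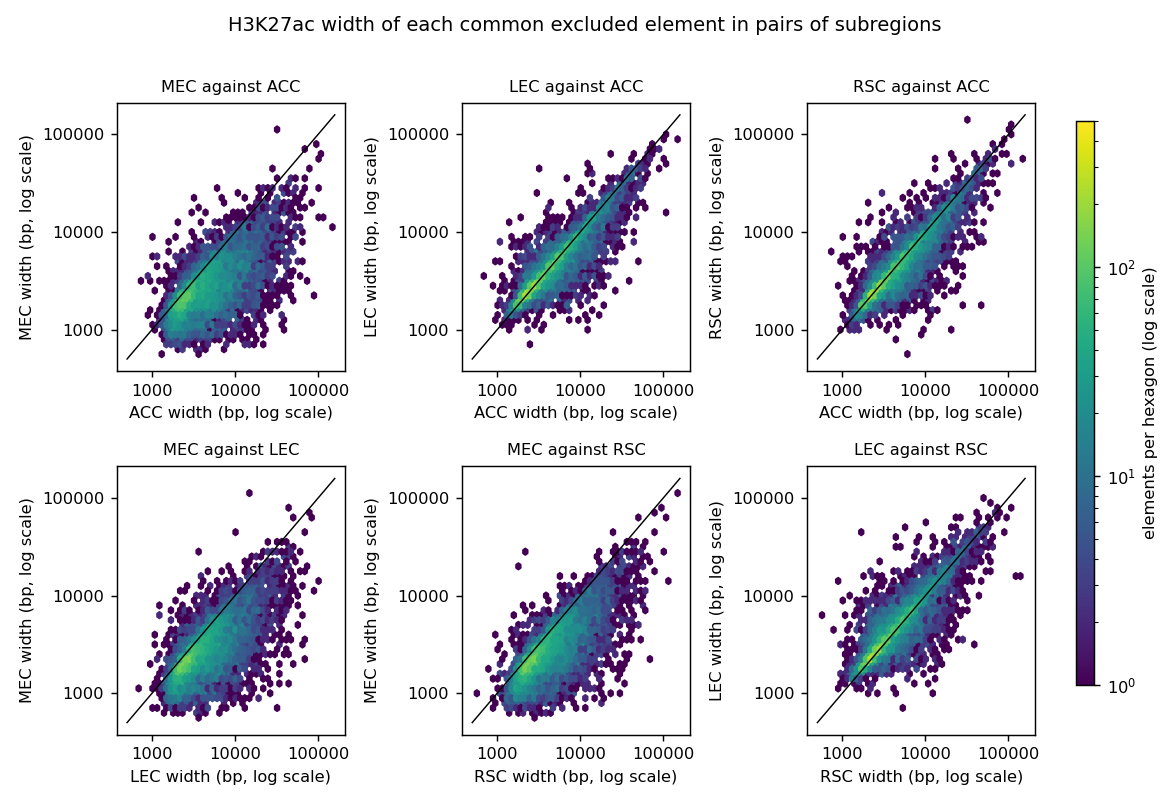
Width of each of the 7095 common elements in pairs of subregions, in bp on log scales; colour gives the number of elements per hexagon and the line marks equal widths. In the LEC, RSC and ACC pairs the cloud follows the line (rho 0.835 to 0.870), and in the 3 MEC pairs most elements lie below it (rho 0.622 to 0.715).

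The MEC difference was larger in wider elements. The elements were sorted by merged width into 5 bands of about equal number. In the narrowest band, 1375 to 2700 bp, the median width was 1625 bp in MEC, 2125 bp in LEC, 2075 bp in RSC and 2100 bp in ACC. There the median log2 MEC over ACC ratio was -0.34, and 89.2% of elements had all 4 widths within 2-fold. In the middle band, 4050 to 6100 bp, the ratio was -0.67 and the share 56.1%. In the widest band, from 10400 bp upwards, the medians were 5300 bp in MEC, 12300 bp in LEC, 12388 bp in RSC and 14688 bp in ACC. The median log2 ratio there was -1.46 for MEC over ACC, against -0.22 for LEC over ACC and -0.19 for RSC over ACC, and 20.5% of elements had all 4 widths within 2-fold. Merged width is set by the widest subregion, so these bands are not independent of the widths they sort.

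Nearly all elements had a core shared by the 4 subregions. Bases lying in a region of every subregion were present in 7020 of the 7095 elements, or 98.9%. Their summed length, which can span several pieces, had a median of 2275 bp, and their median share of the merged element was 51.6% (quartiles 32.9% and 69.6%). Each subregion had a single region in 6161 elements. Among these, starts differed by a median of 150 bp between LEC and ACC and between RSC and ACC, and by 175 bp between LEC and RSC. With MEC the median start difference was 500 bp for ACC, 450 bp for LEC and 400 bp for RSC. The MEC region started inside and ended inside in the typical case, with median shifts of 450 bp at the start and -450 bp at the end relative to ACC. It lay wholly within the ACC region in 71.6% of these elements, within the LEC region in 77.03% and within the RSC region in 75.1%. The midpoints of the MEC and ACC regions were a median of 338 bp apart. Among these elements the median log2 MEC over ACC ratio was -0.58, so the narrower MEC widths were also seen where nothing was summed over several regions.

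Several members show how far this agreement reached. The best-agreeing one, chr13:83851551-83886275, was 34175 bp wide in MEC, 34250 bp in LEC, 34225 bp in RSC and 34075 bp in ACC, with 33700 bp in common. The next were chr11:21137876-21140300 and chr11:104301376-104304850. At chr11:21137876-21140300 the widths were 2375 bp in MEC, 2400 bp in LEC, 2375 bp in RSC and 2375 bp in ACC. At chr11:104301376-104304850 they were 3375, 3400, 3400 and 3350 bp in the same order. These 3 members thus included a wide domain as well as narrow regions. The wide one was not typical: all 4 widths were within 2-fold in 20.5% of the widest band, against 89.2% of the narrowest.

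The member with most bases in a region of every subregion was chr18:69703151-69779550, with 65825 bp. Its width was 68825 bp in MEC (2 regions), 74525 bp in LEC (2), 74050 bp in RSC (1) and 72375 bp in ACC (2). It and the next 4 by this measure were each in several pieces in at least 1 subregion. At chr8:87221776-87327325 MEC had 6 regions summing to 60150 bp, LEC 3 (83250 bp), RSC 1 (105175 bp) and ACC 2 (101850 bp). At chr2:165635901-165716550 MEC had 5 regions (45150 bp) and LEC 3 (72625 bp), where RSC had 1 (79925 bp) and ACC 1 (80250 bp). Enhancer regions lay within both merged spans, over 21300 bp in MEC and 10700 bp in LEC on chromosome 8, and over 8175 bp in MEC on chromosome 2; the subregions not named had none there. At chr2:44868076-44974350 the widths were 66450 bp in MEC, 50700 bp in LEC, 51125 bp in RSC and 104975 bp in ACC, and enhancer regions took up a further 33725 bp in MEC, 42275 bp in LEC, 49325 bp in RSC and 0 bp in ACC. There the subregions differed in how the domain was divided between the excluded and the enhancer list. At chr11:23967551-24071425 the widths were 78875 bp in MEC, 44375 bp in LEC, 94450 bp in RSC and 90600 bp in ACC, with enhancer regions over 11150 bp in MEC, 19550 bp in LEC, 3200 bp in RSC and 2350 bp in ACC.

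Among the 6161 members with 1 region per subregion, those with the lowest MEC width relative to the mean of the other 3 were on chromosomes 18 and 2. At chr18:25739226-25769575 the width was 725 bp in MEC, 30350 bp in LEC, 4675 bp in RSC and 13525 bp in ACC. At chr2:26425251-26446325 it was 875 bp in MEC, 18925 bp in LEC, 18475 bp in RSC and 21075 bp in ACC, and at chr18:61007601-61028100 it was 900, 20400, 14200 and 17050 bp in the same order. The highest MEC ratios among the same 6161 were at chr11:67267451-67283725, with 16275 bp in MEC, 3825 bp in LEC, 8025 bp in RSC and 4300 bp in ACC, at chr6:66842851-66850225, with 7375, 2375, 3450 and 2775 bp, and at chr1:131169101-131174400, with 4850, 2550, 1800 and 1975 bp. Enhancer regions lay beside the excluded ones at some of these as well. They covered 7200 bp in MEC at chr18:61007601-61028100, 800 bp in MEC at chr2:26425251-26446325, and 4625 bp in RSC and 14350 bp in ACC at chr18:25739226-25769575. They also covered 4125 bp in LEC, 5125 bp in RSC and 7025 bp in ACC at chr11:67267451-67283725, where MEC had none. On the log2 scale MEC over the mean of the other 3 ran from -4.48 to 1.60 among these 6161 members. Over all 7095 members it ran from -5.13, at chr6:113756401-113847850, to 2.76, at chr2:56959901-56986750, which were named after their values were seen. The chromosome 6 member measured 2150 bp in MEC, 69750 bp in LEC, 65875 bp in RSC and 89925 bp in ACC. The chromosome 2 member measured 26850 bp in MEC, 3575 bp in LEC, 2125 bp in RSC and 6200 bp in ACC, with 0 bp in a region of every subregion.

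**Figure D3:**
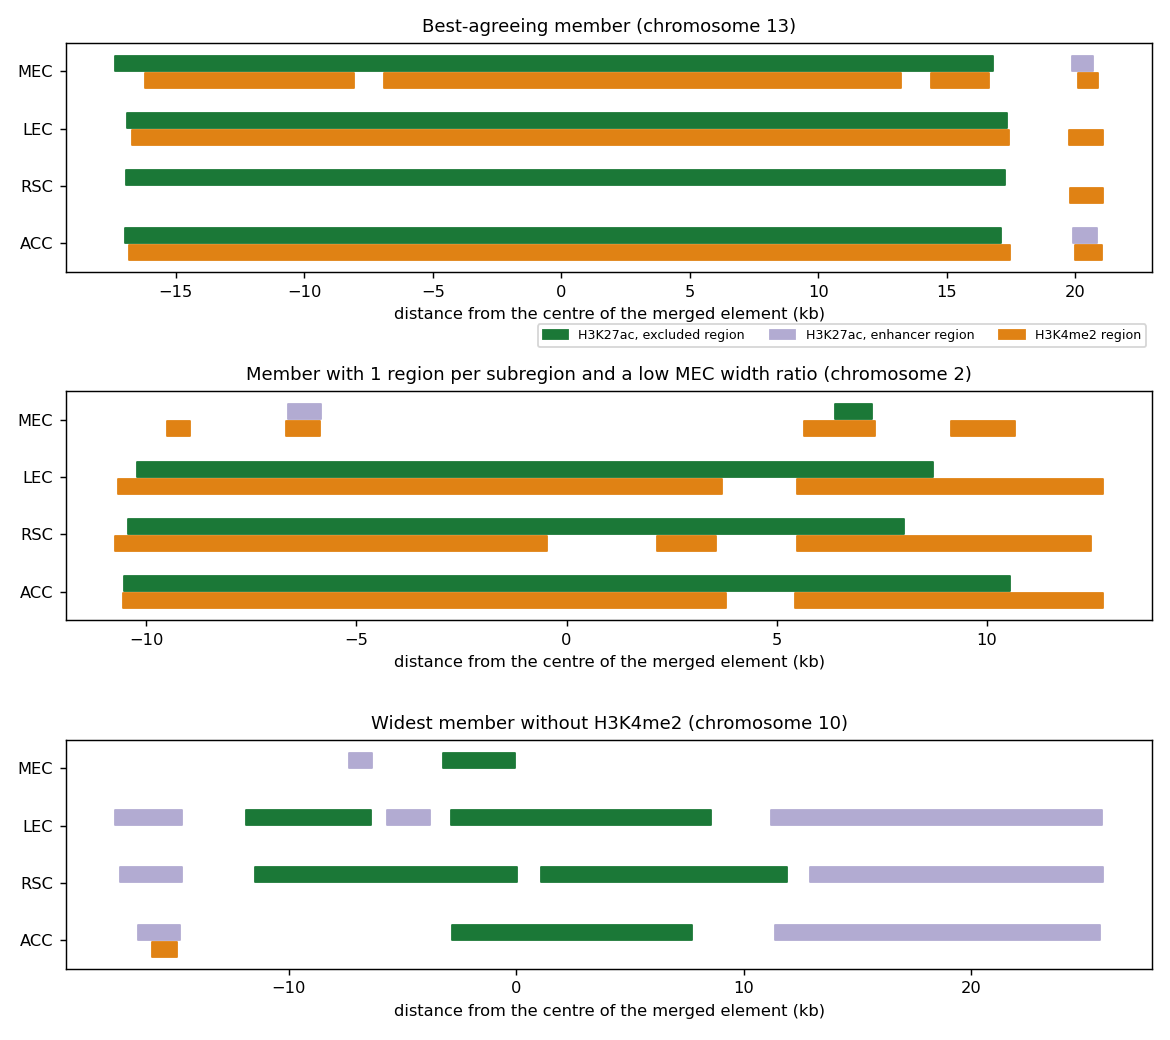
Regions of both marks at 3 named members in each subregion, drawn to scale by distance from the centre of the merged element in kb: H3K27ac excluded regions (green), H3K27ac enhancer regions (violet) and H3K4me2 regions (orange). At the chromosome 13 member the H3K27ac regions nearly coincide and RSC has no H3K4me2 region across them; at the chromosome 2 member the MEC region measures 875 bp inside regions of 18475 to 21075 bp; at the chromosome 10 member no H3K4me2 region overlaps the merged element, and the orange ACC region on its left lies outside it.

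H3K4me2 lists were not used in choosing the elements, and H3K4me2 overlapped most of the elements in each subregion. Whether H3K4me2 had a part in drawing up the H3K27ac enhancer lists, and so in what they left out, is not stated. The share was 90.5% in MEC (89.8 to 91.2), where 59.7% of all merged excluded elements overlapped. It was 90.02% in LEC (89.3 to 90.7) against 71.1% of all, 89.3% in RSC (88.5 to 89.96) against 69.3%, and 88.95% in ACC (88.2 to 89.7) against 74.1%. All 4 subregions had H3K4me2 at 4853 elements, or 68.4% (67.3 to 69.5), where 41.8% of all merged excluded elements did. At 65 elements, or 0.916% (0.719 to 1.17), no subregion had H3K4me2, where 13.6% of all had none. The members are part of the totals they are set beside. Those totals also hold elements without an excluded H3K27ac region in the subregion scored.

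The same comparison can be made region by region within a list. Of the regions in common elements, 86.7% overlapped H3K4me2 of their own subregion in MEC, 87.6% in LEC, 86.7% in RSC and 88.1% in ACC. Of the other excluded regions, it was 86.7% in MEC, 73.6% in LEC, 68.7% in RSC and 70.7% in ACC. In MEC the common and the other excluded regions thus had nearly the same share (85.9 to 87.4 and 85.6 to 87.7), while in the other subregions the intervals lay apart.

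H3K4me2 was found less often at elements of fewer subregions. In MEC the share was 90.5% at common elements, 68.8% at elements of 3 subregions, 44.97% at those of 2 and 18.6% at those of 1. In ACC it was 88.95%, 82.5%, 68.98% and 46.4% in the same order, with LEC and RSC in between. These classes include elements without an excluded H3K27ac region in the subregion scored. MEC was missing in 4164 elements of 3, of which 51.99% overlapped MEC H3K4me2, and 206 elements of 1 came from MEC. Among excluded MEC regions, the share was 86.7% both in common and in other elements. The part of this mix in the order was not tested. Common elements were also wider, with a median of 5000 bp after merging against 3525, 2675 and 1825 bp. An alternative chosen after seeing the data kept only elements of 2000 to 4000 bp, and the order was the same: H3K4me2 of all 4 subregions was at 64.2% (62.3 to 66.1) of common elements, 50.4% of those of 3, 27.95% of those of 2 and 9.99% of those of 1.

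The 4092 H3K27ac enhancer elements of all 4 subregions are the nearest class for comparison, and H3K4me2 was less frequent there. It overlapped 90.5% of the common excluded and 49.6% of the common enhancer elements in MEC, 90.02% and 78.96% in LEC, 89.3% and 80.7% in RSC, and 88.95% and 83.9% in ACC. In all 4 subregions together it was 68.4% and 37.5%. Median merged widths were similar, at 5000 bp for the excluded and 5450 bp for the enhancer elements. The overlapping H3K4me2 regions, counted at their whole length, summed to more at the excluded elements, with medians of 3175 against 1125 bp in MEC, 5350 against 2625 bp in LEC, 5000 against 2600 bp in RSC and 5550 against 3025 bp in ACC. H3K27ac widths agreed more closely too: all 4 were within 2-fold in 56.4% of the common excluded elements and in 43.4% (41.9 to 44.9) of the common enhancer elements.

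**Figure D4:**
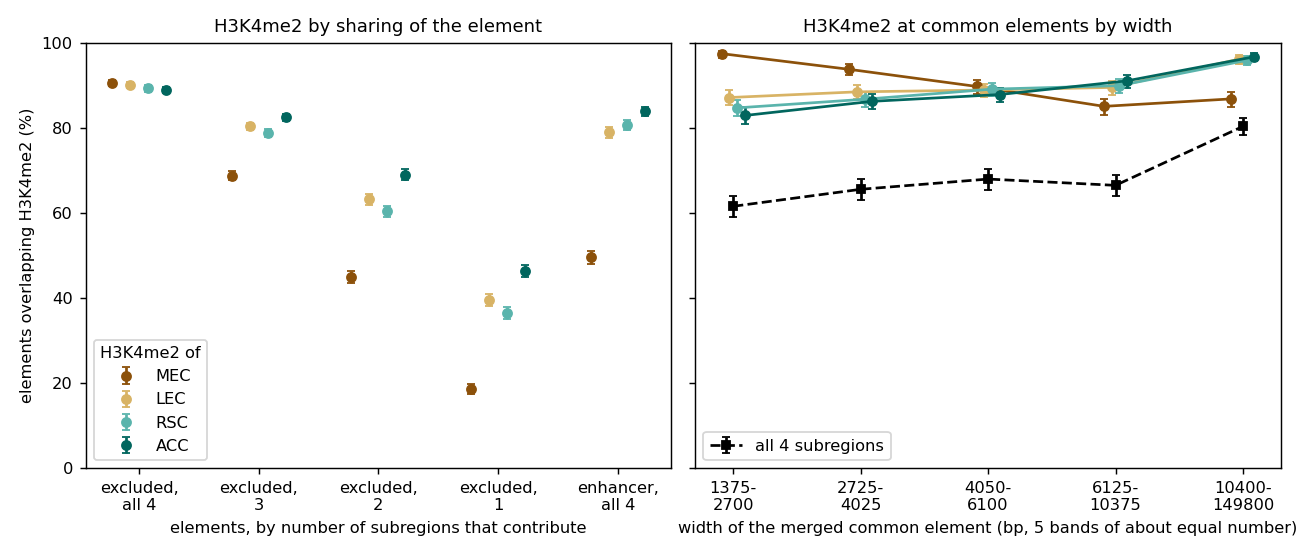
Share of elements overlapped by H3K4me2 of each subregion, in percent with Wilson 95% intervals. Left, by the number of subregions that contribute to the H3K27ac element, with enhancer elements of all 4 last; right, common excluded elements in 5 bands of merged width; the MEC share is 97.4% in the narrowest and 86.8% in the widest band, and the ACC share 82.9% and 96.7%.

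Where H3K4me2 was missing, it was mostly missing in 1 subregion. The 1760 elements with H3K4me2 in 3 subregions lacked it in ACC in 512 cases, in RSC in 455, in MEC in 405 and in LEC in 388. Only 345 elements had it in 2 subregions and 72 in 1. Absence was nevertheless shared to some extent: of the 672 elements without it in MEC, 26.8% (23.6 to 30.3) also had none in LEC, compared with 8.22% (7.57 to 8.92) of elements that had it in MEC. Of the 784 elements without it in ACC, 15.7% (13.3 to 18.4) had none in MEC, compared with 8.70% (8.03 to 9.42) of the rest. The nearest H3K4me2 region of the subregion was then a median of 17888 bp away in MEC, 9838 bp in LEC, 10500 bp in RSC and 9888 bp in ACC. The matching counts by missing list were not computed over all merged excluded elements. The split is therefore not read as a trait of the common elements.

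The best-agreeing member, on chromosome 13, is one of the elements that lacked H3K4me2 in a single subregion. The whole lengths of its H3K4me2 regions were 34150 bp in LEC and 34300 bp in ACC, in MEC 3 regions summed to 30550 bp, and the RSC list had none across the 34225 bp of RSC H3K27ac. The number of subregions with the mark did not order the elements by width. The median merged width was 5250 bp with H3K4me2 in all 4 subregions, 4400 bp in 3, 4125 bp in 2, 4900 bp in 1 and 5525 bp in none. The 3 widest without any were chr10:40185726-40209500, chr7:120419576-120436050 and chr2:130552026-130568375. At the first, H3K27ac measured 3150 bp in MEC, 16925 bp in LEC, 22350 bp in RSC and 10525 bp in ACC.

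The share with H3K4me2 differed by width in opposite directions. In MEC it was 97.4% (96.5 to 98.1) in the narrowest band of elements and 86.8% (84.9 to 88.5) in the widest. In LEC it was 87.1% and 96.1%, in RSC 84.7% and 95.9%, and in ACC 82.9% and 96.7%, narrowest first. The MEC H3K4me2 list stems from 1 library by the labels, the others from 2, and the part of this in the result was not tested.

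H3K4me2 regions at the common elements summed to more than the H3K27ac width in the median, by measures that are not alike. The H3K4me2 regions came from the full list and were counted at whole length, also beyond the element. The H3K27ac width holds excluded regions alone and leaves out enhancer regions in the same span. Whether H3K4me2 was broader than H3K27ac was thus not tested. Where both were present, the overlapping H3K4me2 regions, at their whole length, summed to a median of 1.29 times the H3K27ac width in MEC, 1.28 times in LEC, 1.25 times in RSC and 1.18 times in ACC. They covered a median of 97.3% of the H3K27ac bases in MEC, 100% in LEC, 100% in RSC and 99.8% in ACC. The widths of the marks followed each other less closely than H3K27ac widths did between LEC, RSC and ACC, with a rho across elements of 0.528 in MEC, 0.650 in LEC, 0.644 in RSC and 0.698 in ACC. Both marks share the element and the tissue, and these values are descriptions. Most of the H3K4me2 at the elements was itself excluded from the enhancer lists of that mark. Excluded H3K4me2 regions overlapped 86.5% of the elements in MEC, 88.03% in LEC, 87.05% in RSC and 87.5% in ACC, and H3K4me2 enhancer regions overlapped 13.1%, 10.1%, 11.04% and 9.26% in the same order. The matching shares over all merged excluded elements were not computed, so these values are not read as a trait of the common elements.

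The common elements were spread unevenly over the chromosomes. Density was counted per Mb between the first and the last listed region of a chromosome, and averaged 2.84 per Mb (2.77 to 2.91, exact Poisson 95% interval) over the autosomes. Chromosome 11 was densest with 579 elements, or 4.88 per Mb (4.49 to 5.29). Chromosome 19 followed with 3.996 per Mb (3.498 to 4.54), then chromosome 7 with 3.497 (3.20 to 3.81), and the intervals of these last 2 overlapped. The sparsest autosome was chromosome 14 with 231 elements or 1.89 per Mb (1.66 to 2.15), next to chromosomes 13 and 1 at 2.06 each with overlapping intervals. The X chromosome had 245, or 1.52 per Mb (1.33 to 1.72), and the Y chromosome 3.

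The densities went with those of the other excluded elements. Across the 19 autosomes, members per Mb went with excluded elements of fewer subregions per Mb (Pearson's r 0.946, Spearman's rho 0.886). With enhancer elements of all 4 subregions per Mb, r was -0.19 and rho -0.17. These are descriptions over chromosomes, with no p. Chromosome 11 had 4.88 common excluded and 1.52 common enhancer elements per Mb, whereas chromosome 13 had 2.06 and 2.12. The members made up 30.05% (28.04 to 32.1) of the excluded elements of chromosome 11, 25.4% (22.7 to 28.4) of those of chromosome 14 and 31.9% (28.7 to 35.3) of those of the X chromosome. The X chromosome held 3.45% (3.05 to 3.90) of the members, where it held 3.09% of all merged excluded elements. Excluded elements of any kind numbered 4.75 per Mb on the X chromosome and 9.96 per Mb on the autosomes.

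**Figure D5:**
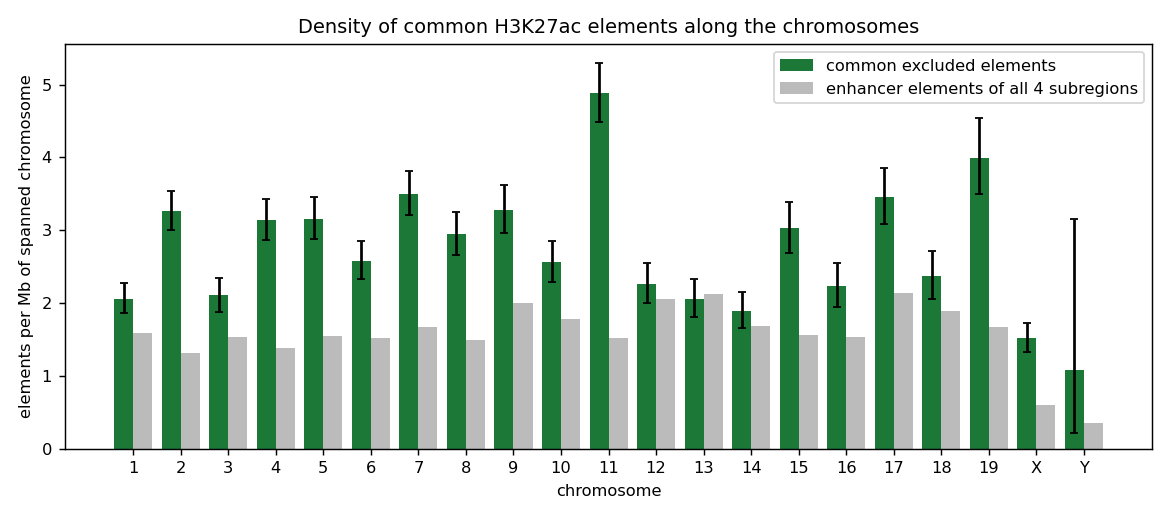
Elements per Mb between the first and last listed region of each chromosome, for the common excluded elements (green, bars with exact Poisson 95% intervals) and the enhancer elements of all 4 subregions (grey). Chromosome 11 stands highest in green at 4.88 per Mb and chromosome X lowest of all but Y at 1.52 per Mb, while the grey bars of the autosomes run from 1.32 to 2.14 per Mb.

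Widths and H3K4me2 were also compared between chromosomes. Over the autosomes and X, the share of members with H3K4me2 in all 4 subregions ran from 64.6% on chromosome 9 to 71.4% on chromosome 13. The median log2 MEC over ACC width ratio ran from -0.78 on chromosome 15 to -0.56 on chromosome 13, so MEC was the narrower of the 2 on each of these chromosomes. All 4 widths were within 2-fold in 51.8% of members on chromosome 15 and 65.3% on the X chromosome, the lowest and highest of these.

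Members per window varied along the chromosomes. Of 2586 windows of 1 Mb, 795 held none, the median was 2, and 146 windows with at least 10 held 1934 members, or 27.3% of those on the autosomes and X. The fullest was chr10:80000001-81000000 with 26 members, 32 other excluded elements and 0 enhancer elements of all 4 subregions. The windows chr7:52000001-53000000, chr15:76000001-77000000 and chr19:4000001-5000000 each held 22, with 0, 2 and 1 such enhancer elements. In the fullest window the median width was 2213 bp in MEC, 5875 bp in LEC, 5013 bp in RSC and 6700 bp in ACC, and 16 of the 26 members had H3K4me2 in all 4 subregions. The spread over windows was not computed for all merged excluded elements, so it is not read as a trait of the members.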

How the data were processed

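The 16 lists used cover 4 subregions, 2 marks (H3K27ac and H3K4me2) and a full and an enhancer list each; a 17th repeats the MEC H3K27ac enhancer list and was not used. Genome build mm9, Bowtie 1.1.1 and bedtools 2.19.0 are named, per the submitters' processing notes. Which program called the regions, at what threshold, and how libraries entered a list is not stated, although the deposited lists are named as reproducible regions. The deposited score was the width of the region in every list that had one (0 exceptions), so it carries no enrichment. Every enhancer region stood in its full list (0 exceptions). The labels describe 23 samples, inputs included, with no values per library in the lists.

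Regions were merged and measured in Python (3.11.15; numpy 2.4.6; scipy 1.17.1). A merge with bedtools 2.31.1 gave the same 24783 elements and 7095 common ones. Merging and overlap were tested on simulated lists. Percentages have Wilson 95% intervals, medians binomial order-statistic intervals and densities exact Poisson intervals. No test was run. The elements, comparisons and alternatives were chosen with earlier results of these lists known. Named were the 5 members with most bases in a region of every subregion, the 3 highest and the 3 lowest in MEC width relative to the mean of the other 3 (1 region per subregion), the 3 widest without H3K4me2, the 3 that agreed best in width with at least 2000 bp in common, and the 3 fullest windows of 1 Mb, ties included. The members of 3 subregions and single chromosomes named beside them were chosen after their values were seen.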

Additional observations from a re-analysis of the deposited data

Results flagged for a closer look

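The share of common elements with H3K4me2 differed with element width in opposite directions in MEC and in the other subregions. The share in the widest of 5 width bands minus that in the narrowest was -10.6 percentage points in MEC, 9.02 in LEC, 11.2 in RSC and 13.8 in ACC. There is 1 list per subregion, so this difference was not tested. The labels describe 1 H3K4me2 library for MEC and 2 for each of the others.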

How the results depend on the processing

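No paired analysis was possible because the lists carry no values per library. The number of common elements, 7095, stayed within 1.5 times under 9 of 11 other settings. Within that bound, the lowest was 4918, when each list was shortened to the length of the shortest by keeping its widest regions. Outside it, the number was 3883 when each subregion had to cover at least 50% of the merged element and 11262 without MEC. The share with H3K4me2 in all 4 subregions, 68.4%, was 66.5% without elements that overlap an enhancer region and 71.4% when each list was shortened to the length of the shortest by keeping its widest regions. It was 64.2% among elements of 2000 to 4000 bp, 42.5% when H3K4me2 had to cover 50% of the element, 64.1% with H3K4me2 regions of at least 1000 bp, 63.7% with excluded H3K4me2 regions alone and 3.06% with H3K4me2 enhancer regions alone. The share with all 4 widths within 2-fold, 56.4%, was 58.1% with regions of at least 1000 bp, 64.9% without elements that overlap an enhancer region, 48.96% with the lists shortened, 61.7% with 1 region per subregion, 79.97% over the 11262 elements found without MEC and 85.7% with LEC, RSC and ACC widths alone. It is 100% by construction at 50% coverage. The median log2 MEC over ACC ratio, -0.66, was -0.63 with regions of at least 1000 bp, -0.32 at 50% coverage, -0.56 without elements that overlap an enhancer region, -0.84 with the lists shortened and -0.58 with 1 region per subregion, so MEC was narrower in all 8 settings run. The share on the X chromosome, 3.45%, was 3.94% at 50% coverage and stayed within its interval in the other 6 settings. Settings with 2000 to 4000 bp, 1 region per subregion, or LEC, RSC and ACC widths alone were chosen after seeing the data. Depth is unknown, so an absent region can be a region below an unknown threshold.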

Other observations

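The 1164 common elements that overlapped an H3K27ac enhancer region of at least 1 subregion were wide, with a median of 14738 bp after merging against 4200 bp for the other 5931. A wider span has more room to overlap a region, so this split is not independent of width. The median widths of the 1164 were 4088 bp in MEC, 9538 bp in LEC, 10113 bp in RSC and 12688 bp in ACC. H3K4me2 in all 4 subregions was at 78.01% of them, against 66.5% of the others. That share also differed by merged width alone, at 61.6% in the narrowest and 80.3% in the widest of the 5 bands. The part of width was not tested. From the members as a whole, the nearest enhancer region of the same mark was a median of 61525 bp away in MEC, 25450 bp in LEC, 23550 bp in RSC and 20950 bp in ACC, overlapping ones counted as 0, with an enhancer list of 10951 regions in MEC and 22973 to 27909 elsewhere.

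The gap from a member to the nearest other member had a median of 47450 bp, with quartiles of 16113 and 131338 bp. It was at most 10 kb for 1242 members, or 17.5% (16.6 to 18.4). Among the enhancer elements of all 4 subregions it was 21.4% (20.2 to 22.7), with a median gap of 55375 bp. The excluded elements of 3 subregions were closer to the members, at 16.8% (15.9 to 17.6) and 49050 bp. For those of 2 the values were 14.6% and 66350 bp, and for those of 1 they were 16.3% and 64800 bp.

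Single lists lacked H3K27ac over wide stretches that the other 3 listed. Besides the chromosome 7 element missing in ACC, chr13:54845651-54869225 was 20925 bp wide in MEC, 22675 bp in RSC and 23575 bp in ACC with no full-list region in LEC, where LEC H3K4me2 covered 23325 bp. At chr7:4068026-4090825 the RSC list had no H3K27ac region and 19775 bp of H3K4me2, with H3K27ac widths of 18225 bp in MEC, 22075 bp in LEC and 22800 bp in ACC. At chr2:26327051-26364800 the MEC list had none and 4125 bp of H3K4me2, with 34650 bp in LEC, 25100 bp in RSC and 37750 bp in ACC. Why these regions stood outside 1 list was not tested.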
